A study of Rattus norvegicus with 5 samples.

Results

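Clones 5-3.14 and 5-3.19 of the rat insulinoma line INS-1 were compared with clones 1-1.2 and 1-1.16 of the same line. The members were the 4 clone arrays of the 5 arrays in the study, assigned to set 5-3 or set 1-1 by the clone names, and 15866 of 15923 probe sets, the rest being control probe sets. INS-1 cells make and secrete insulin. All 4 clones carry an FRT site, at which Flp recombinase can insert a gene, and the tetracycline repressor, through which a gene placed there is silent unless the drug is given. The labels name no inserted gene, no tetracycline treatment and no culture age for any of the arrays, and they do not say what the first part of a clone name stands for or if both clones of a set had a common ancestor. Parental INS-1 cells are given as a reference level. Each clone has 1 array, and so has the parental line, which the labels do not call a clone. Every value set against another therefore compares these single arrays.

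INS-1 cells belong to a tissue with a mixed identity. Pancreatic beta cells are epithelial cells, joined by E-cadherin and built on simple-epithelium keratins, and at the same time neuroendocrine cells that store peptides in dense-core granules and release them by regulated exocytosis. Their heavy secretory load makes them depend on the unfolded protein response, which expands folding capacity in the endoplasmic reticulum, and on the related amino acid response driven by the transcription factor ATF4. Insulin release is tied to metabolism through glucose uptake, glycolysis and mitochondrial oxidation, and mature beta cells keep lactate handling low.

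Signals are linear and were scaled to a common level on all arrays, with a trimmed mean of 1000.24 to 1000.28 and a median signal of 342 to 372 per array. Precision is limited by having 1 array per clone. Of 9 listed beta cell markers 8 were on the array. All 8 were bright enough to test, with a summed signal of 90550 to 146058 on the 4 clones. Ins1, an insulin gene, read 42217 and 34381 in set 1-1 and 37972.5 and 37189.5 in set 5-3, so the sets overlapped. None of the markers of acinar, endothelial, leukocyte or glial cells was bright enough to test (0 of 8, 0 of 4, 0 of 6 and 0 of 3 on the array), and each of these lists summed to between 192 and 783 on every array. The summed fibroblast markers, of which 2 of 8 were tested, read 2713 and 1674 in set 1-1 and 2881 and 1804 in set 5-3. Most of this sum came from Thy1, at 1840 and 854 in set 1-1 and 2053 and 1108 in set 5-3. Of 3 ductal markers on the array 1 was tested, Krt7, with 882 and 903 in set 1-1 and 808 and 1218 in set 5-3, so the sets overlapped. As a sign of RNA quality, the 3′ to 5′ signal ratio of the actin control lay at 1.49 to 1.73 on the clones. The hexokinase ratio varied more, from 0.56 in clone 1-1.16 to 1.45 in clone 1-1.2. On the parental array the hexokinase ratio was 0.22, below every clone, while the actin ratio was 1.6. Of the added control RNAs, Lys differed most, with a geometric mean signal over 3 probe sets of 1319 to 1799 on the clones against 5848 on the parental array. For Phe it was 5736.5 to 7715.8 against 8868.4.

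The sets differed in few genes by test and in many by order. Values below were taken as log2(signal + 21.8), and fold changes are on that scale, which understates the change of dim genes. Of 9520 probe sets bright enough to test, covering 6944 genes, limma with Benjamini-Hochberg adjustment called 21 higher in set 5-3, which is 0.221%, and 19 lower, which is 0.2%, at an adjusted p under 0.05. The p-values measure only the spread between the clones within each set, and an exact permutation test of 2 clones against 2 could not go below a two-sided p of 0.33. A gene is called separated here when both clones of one set read above both clones of the other. By this count 1504 genes (21.7%) were separated with set 5-3 higher and 1809 (26.1%) with set 5-3 lower. These shares are the background for every list count below. Separation by at least 2-fold in all 4 pairs of clones held for 81 genes higher (1.17%) and 57 lower (0.821%). Over the tested probe sets the median absolute log2 difference was 0.26 between the set means, against 0.23 between the 1-1 clones and 0.29 between the 5-3 clones. In bulk RNA, fewer cells of a kind and less RNA per cell cannot be told apart.

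**Figure D1:**
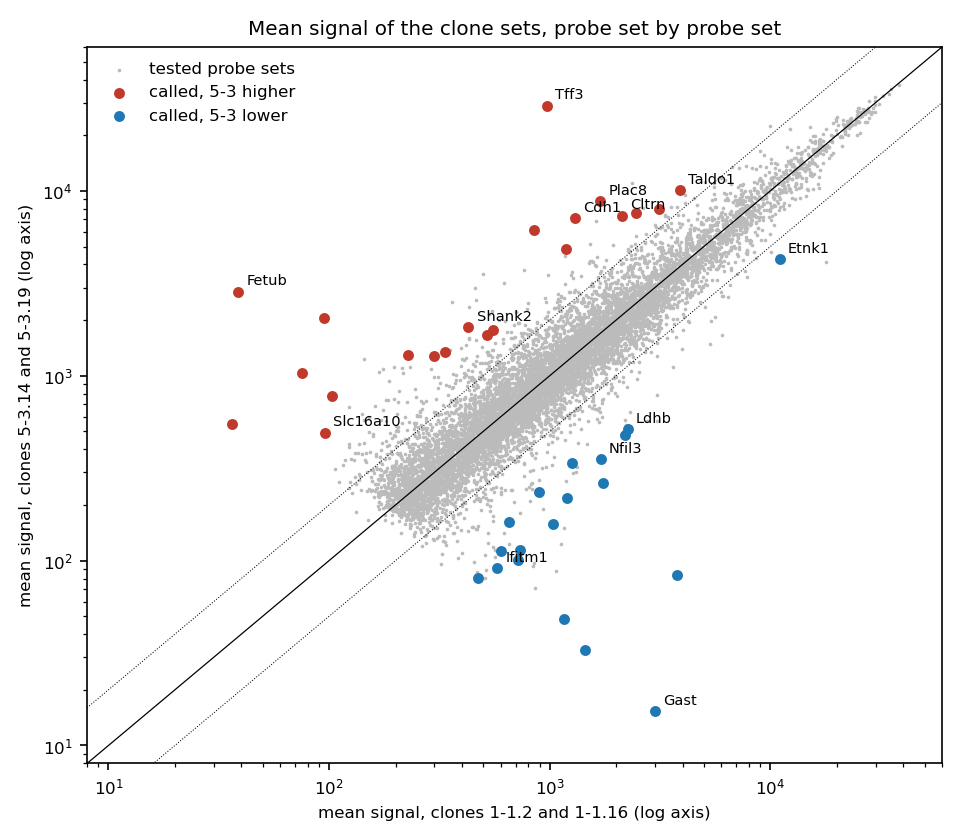
Mean signal of the 2 clones of set 1-1 (horizontal, log axis) against the mean signal of the 2 clones of set 5-3 (vertical, log axis), 1 grey point for each of the 9520 tested probe sets. Red and blue points are the 21 probe sets called higher and the 19 called lower in set 5-3. The solid line marks equal signal and the dotted lines a 2-fold difference. Most probe sets lie within the dotted lines, and the called ones lie outside them.

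The 40 called probe sets held 35 named genes, 20 higher and 15 lower, and the standard errors of their log2 differences ran from 0.18 for Taldo1 to 0.51 for Gng3. Calls differed in how far they rested on single clones. Of the 20 higher genes, 9 were called whichever clone was left out: Fetub, Tff3, Slc18a1, Espn, Tfe3, Muc13, Cdh1, Nkain1 and Plac8. Of the 15 lower genes, 6 were: Gast, Gng3, Marchf7, Rab34, Ccdc61 and Med13l. All other called genes lost the call without clone 1-1.2, without clone 1-1.16 or in both of those fits, and 22 and 25 of the 40 probe sets kept it in them. Without clone 5-3.14 or clone 5-3.19 all 40 probe sets kept the call, and the number of calls was 127 higher and 94 lower without 5-3.14 and 87 higher and 137 lower without 5-3.19. Without 1-1.16 the called higher probe sets numbered 32. Rab34 was called from 1 probe set with a log2 difference of −4.18, while its brighter probe set gave −0.39.

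The parental signal lay between the sets for most of the genes that differed. It lay between them for 72 of the 97 probe sets separated by at least 2-fold with set 5-3 higher and for 50 of the 71 with set 5-3 lower. It was nearer to set 5-3 for 48 and nearer to set 1-1 for 49 of the higher probe sets. Of the lower ones it was nearer to set 1-1 for 45 and nearer to set 5-3 for 26.

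Epithelial genes were mostly higher in set 5-3. Of 52 listed genes of cell junctions and polarity, 31 were on the array with 1 gene symbol and 19 were bright enough to test. Among the 19, 11 (57.9%) were separated higher and 2 (10.5%) lower, beside 21.7% and 26.1% of all genes, with a median log2 difference of 0.31 against −0.05 over all genes tested. Cdh1, which encodes E-cadherin, the calcium-dependent adhesion protein of epithelial junctions, was the only called member of this list. It read 1303 and 1306 in clones 1-1.2 and 1-1.16, 7768 and 6524 in clones 5-3.14 and 5-3.19, and 2048 in the parental line. Both 5-3 clones were far above all other arrays, at 5.38-fold over set 1-1 (limma adjusted p 0.0115). Clone signals below are given in this same order.

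Elf3, an epithelial transcription factor of the ETS family, read 315 and 412 in set 1-1 and 1022 and 1009 in set 5-3, a 2.72-fold difference that did not pass the test (limma adjusted p 0.0692). Jup, plakoglobin of desmosomes and adherens junctions, read 454.5 and 529.8 in set 1-1 and 1438 and 901 in set 5-3 (2.26-fold, adjusted p 0.15). Neither gene overlapped between the sets. The junction genes did not all follow. Epcam, an epithelial adhesion molecule, read 8112 and 8954 in set 1-1 and 7926 and 9233 in set 5-3 and overlapped fully, and all 4 clones were above the parental 4688.5. Ocln, the tight junction protein occludin, was separated the other way, with 2398 and 2203.5 in set 1-1 and 1714 and 1243.5 in set 5-3 (log2 difference −0.65, adjusted p 0.279).

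The list of keratins, brush border and apical membrane proteins held the higher median, 0.54 (0.23 with no filter), with 9 of 17 tested genes separated higher and 1 lower, and 4 separated higher by at least 2-fold. A total of 41 genes were listed and 31 were on the array. Against the parental line, the median over the 17 genes was −0.26 in clone 1-1.2 and −0.36 in clone 1-1.16 but 0.68 in clone 5-3.14 and 0.39 in clone 5-3.19. The 4 separated by 2-fold were Espn, Pllp, Nherf1 and Myo6. Espn, whose product espin bundles actin in microvilli, was called and read 73.4 and 76.5 in set 1-1 against 1191 and 877 in set 5-3 (limma adjusted p 0.0106). Nherf1, a scaffold protein under the apical membrane, read 3017 and 2994 in set 1-1 and 6646.5 and 6451 in set 5-3, close to 2.17-fold with little spread in either set (adjusted p 0.069).

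Pllp, the membrane protein plasmolipin, read 75.1 and 170.3 in set 1-1 and 856 and 496 in set 5-3, and Myo6, an actin motor, read 201 and 242 against 509 and 682. Their adjusted p were 0.0869 and 0.116. Krt8, a keratin of simple epithelia, read 12543 and 12028 in set 1-1 and 23347 and 19938 in set 5-3, 1.76-fold apart and without overlap (limma adjusted p 0.101). Its filament partner Krt18 read 3818 and 3992 against 4196 and 5671, a smaller gap of 1.25-fold. Mal2, a protein of apical transport, was the only member of this list separated lower (log2 difference −0.25, adjusted p 0.656).

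**Figure D2:**
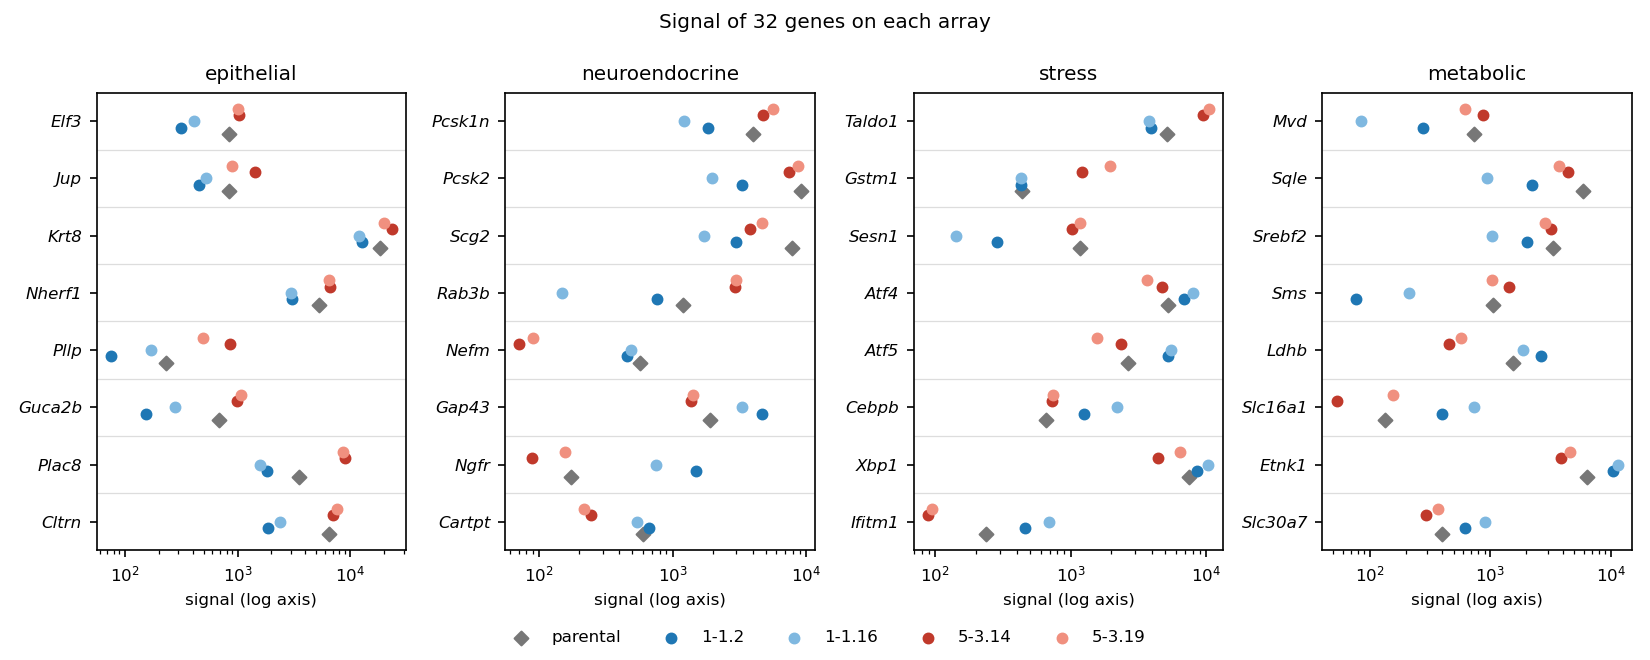
Signal of 32 genes on the 5 arrays (log axis), 8 in each panel, with the parental array as a grey diamond, the 1-1 clones in blue and the 5-3 clones in red. Plac8 and Etnk1 belong to no list, and Cltrn, drawn with the epithelial genes, belongs to the hepatocyte nuclear factor list. Called genes are Plac8, Cltrn, Nefm, Taldo1, Ifitm1, Ldhb and Etnk1; the others were chosen after their values were seen. The red points lie to the right of the blue points for the 8 genes of the epithelial panel. That panel leaves out list members that overlapped or were lower, such as Epcam, Ocln and Mal2. The red points lie to the left for Nefm, Gap43, Ngfr, Cartpt, Atf4, Atf5, Cebpb, Xbp1, Ifitm1, Ldhb, Slc16a1, Etnk1 and Slc30a7.

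Mucosal genes held some of the largest single differences but no common direction. Of 45 listed genes, 35 were on the array and 12 were tested, of which 4 were separated higher and 2 lower. The median was 0.35, 0.09 without clone 5-3.19 and −0.01 with no filter on dim probe sets. Tff3, a trefoil peptide secreted with mucus, read 961 and 976 in set 1-1, 30294 and 27465 in set 5-3 and 7592 in the parental line. The 5-3 clones were therefore above, and the 1-1 clones below, their parental line. The fitted difference was 29.2-fold (limma adjusted p 0.000383). Muc13, a transmembrane mucin, was the other called member (log2 difference 2.84, adjusted p 0.0148). Guca2b, the gut peptide uroguanylin, read 154 and 277 in set 1-1 and 982 and 1080.3 in set 5-3 and just missed the threshold (adjusted p 0.051). Car8, a carbonic anhydrase-related protein, was separated lower (log2 difference −1.79, limma adjusted p 0.162). Only in the 1-1 clones did Car8 read above 194, the signal limit of the filter on dim probe sets.

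Plac8, a small cysteine-rich protein first named from placenta, was called outside the lists. It read 1814 and 1575 in set 1-1 and 8997 and 8528.5 in set 5-3 (5.13-fold, limma adjusted p 0.0115), and parental cells were at 3509. The called genes Fn1, Cd99, Adam15 and Igfbp7, of which Fn1 is in the mesenchymal list, encode proteins of the matrix or the cell surface, but 0 of the 14 tested genes of the matrix and integrin list were called. Fn1, fibronectin, read 2314 and 2618 against 8221 and 6953 (3.05-fold, adjusted p 0.0382). Cd99, a cell surface adhesion protein, read 1134 and 1238 against 5452 and 4270.2 (4.02-fold, adjusted p 0.0309). Adam15, a membrane metalloprotease, read 509 and 597 against 1805 and 1728 (3.12-fold, adjusted p 0.045), and Igfbp7, a secreted matrix-associated protein, 2984 and 3296.5 against 7871 and 8048 (2.53-fold, adjusted p 0.0493). All of these were without overlap between the sets, and apart from Plac8 none was called without clone 1-1.2, with adjusted p of 0.0551 to 0.115 in that fit. Without clone 1-1.16, Cd99 was the 1 of these 4 genes still called (adjusted p 0.0417).

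Fn1 was also the only called member among the mesenchymal genes, of which 39 were listed, 37 were on the array and 11 were tested. In that list 3 genes were separated higher and 0 lower, with a median of 0.13 that was −0.07 without clone 1-1.16, 0.36 without clone 5-3.19 and −0.06 with no filter. Cdh2, N-cadherin, read 906 and 1385 in set 1-1 and 1681 and 2049 in set 5-3, so E-cadherin and N-cadherin transcripts were both higher in set 5-3, the latter without passing the test (adjusted p 0.291). Of 14 tested matrix and integrin genes (56 listed, 41 on the array) 5 were separated higher and 1 lower, with a median of 0.12 that was −0.00 without clone 5-3.14, 0.18 without clone 5-3.19 and −0.06 with no filter. The highest of them was Itgb1, integrin beta 1, with 2549.9 and 2307 in set 1-1 and 4889 and 5384.5 in set 5-3 (2.11-fold, adjusted p 0.0869).

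Among genes bright enough to test, the hepatocyte nuclear factor list had the highest median of the programme lists. It did not keep that rank with no filter on dim probe sets. Of 60 listed genes of this network and of liver-type secreted proteins, 42 were on the array and 12 were tested, with 7 separated higher, 0 lower and a median of 0.81. The median was 0.40 without clone 5-3.19 and 1.17 without clone 5-3.14, and −0.05 with no filter. Against the parental line it was −1.22 in clone 1-1.2, −0.46 in clone 5-3.14 and 0.19 in clone 5-3.19. In both 1-1 clones only 1 of the 12 genes read above the parental line. The 1-1 clones thus lay farther from the parental line in these genes. Fetub, the liver-secreted protein fetuin B, held the largest higher difference of any tested gene (log2 5.58, adjusted p 0.000987). It read 30.3 and 47 in set 1-1, 191.9 in the parental line and 3139 and 2556 in set 5-3. Only its 5-3 signals were above the filter limit of 194, so it was tested through the set where it is high. Hnf4a itself, a nuclear receptor that drives liver, gut and beta cell genes, was the highest of 20 tested islet transcription factors and did not pass the test (2.58-fold, adjusted p 0.107).

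Cltrn, collectrin, is a membrane protein of beta cells and kidney and a known target of HNF1 factors. It was called at 3.45-fold (limma adjusted p 0.0363, and 0.057 without clone 1-1.2), with 1854.5 and 2398.5 in set 1-1, 7062 and 7618 in set 5-3 and 6403 in the parental line. The 5-3 clones were near the parental signal and the 1-1 clones well below it. F5, coagulation factor V, read 126 and 157 against 327 and 908 (adjusted p 0.164). Not all liver-type genes were separated: Ambp, a plasma protein precursor, read 7905 and 9981 in set 1-1 and 5899 and 9252 in set 5-3, and Slc2a2, which encodes GLUT2, read 5337.5 and 6485 against 4153 and 10531, each with overlap.

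Promoters are shown for 3 called genes picked by hand, Tff3 and Cltrn (higher in set 5-3) and Gast (lower). Many other genes called higher differed more than Cltrn. Shown are the 250 bases before each start site. They come from the RefSeq table of rat build GRCr8, at chr20:9199334-9199583 on the minus strand for Tff3, chrX:34027125-34027374 on the minus strand for Cltrn and chr10:85764966-85765215 on the plus strand for Gast. Capitals mark a TATA box (TATANAA), an HNF1 motif (GTTAAT, any base, then ATTAA) or an E-box (CAGGTG, here as its reverse complement CACCTG), each searched on both strands.
Tff3: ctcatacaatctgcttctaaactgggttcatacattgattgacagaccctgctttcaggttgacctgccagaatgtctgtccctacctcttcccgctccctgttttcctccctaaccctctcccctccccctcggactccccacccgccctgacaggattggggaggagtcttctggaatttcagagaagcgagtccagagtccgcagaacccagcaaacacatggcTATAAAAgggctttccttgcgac
Cltrn: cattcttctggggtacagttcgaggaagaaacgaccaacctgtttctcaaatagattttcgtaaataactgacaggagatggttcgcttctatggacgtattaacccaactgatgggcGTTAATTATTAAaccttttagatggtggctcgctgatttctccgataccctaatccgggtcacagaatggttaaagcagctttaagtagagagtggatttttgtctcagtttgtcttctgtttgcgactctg
Gast: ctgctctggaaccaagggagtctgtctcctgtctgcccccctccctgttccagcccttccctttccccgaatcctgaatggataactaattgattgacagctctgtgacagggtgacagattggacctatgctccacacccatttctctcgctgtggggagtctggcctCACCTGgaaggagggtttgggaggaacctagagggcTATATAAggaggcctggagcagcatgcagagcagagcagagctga

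Of the 20 genes called higher 13 were in the RefSeq table, and of the 15 called lower 11 were. The HNF1 motif was in 1 of the 13 (Cltrn) and 0 of the 11, against 15 of 27457 promoters of that length (0.0546%). Cltrn is a known HNF1 target and was picked by hand, so this 1 match cannot show that called genes hold the motif more often. A TATA box was in 1 of the 13 (Tff3) and 2 of the 11 (C2cd4b and Gast), against 11.5% of all promoters. The E-box was in 3 of the 13 (Espn, Slc16a10 and Taldo1) and 2 of the 11 (Marchf7 and Gast), against 15.6%. A match describes these letters only and is not a site of binding.

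Neuroendocrine lists held called genes in both directions. Of 42 listed peptide hormones, 37 were on the array and 10 were tested, with 2 separated higher and 3 (30.0%) lower, beside 21.7% and 26.1% of all genes. Their median of −0.29 ran from −0.65 without clone 5-3.14 to 0.03 without clone 1-1.2, and it was −0.51 without clone 1-1.16 and −0.04 without clone 5-3.19. Gast, the precursor of the stomach hormone gastrin, was the only called member and had the largest difference of all tested genes. It read 2540.1 and 3474.5 in set 1-1, 12.9 and 18 in set 5-3 and 1362 in the parental line (80.5-fold, limma adjusted p 0.000499). Both 5-3 signals are below the offset, so the size of this ratio depends on the offset.

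Cartpt, the peptide precursor CART, read 662 and 537 in set 1-1 and 244 and 217 in set 5-3 (adjusted p 0.101). Gcg, proglucagon, was at the other end of the list, yet 1 clone of set 1-1 stood with set 5-3: it read 2064 in clone 1-1.2, 17772 in 1-1.16 and 20549.5 and 24434 in set 5-3 (adjusted p 0.382). Iapp, amylin, read 33945 and 19870.5 against 28102 and 19159.8 and overlapped.

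Genes of prohormone processing and of the granule matrix differed unequally. Of 22 tested granule and processing genes (29 listed, 24 on the array) 7 were separated higher and 4 lower, with a median of 0.12 that was 0.20 without clone 5-3.14 and 0.04 without clone 5-3.19. Pcsk2, the prohormone convertase PC2, read 3331 and 1974 in set 1-1, 7512 and 8705 in set 5-3 and 9129.9 in the parental line (3.13-fold, adjusted p 0.0692). Pcsk1n, proSAAS, an inhibitor of the convertase PC1, read 1836 and 1224.5 against 4737 and 5627 (3.41-fold, adjusted p 0.0519). In both genes the 1-1 clones were below the parental line and the 5-3 clones near or above it. The granins Chga and Chgb differed by 1.09-fold and 1.08-fold and overlapped. Nucb2, the nesfatin precursor, was separated lower at 3488 and 3643 against 1179 and 2297 (adjusted p 0.201).

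Transmitter and exocytosis genes showed the same mixture. Slc18a1, the vesicular monoamine transporter VMAT1, read 71 and 119 in set 1-1, 1675 and 2409 in set 5-3 with 1189 in parental cells (limma adjusted p 0.00839), and was the only called gene of 13 tested for monoamines and GABA (33 listed, 25 on the array, 2 separated higher and 3 lower, median 0.38, −0.04 with no filter, 0.07 without clone 1-1.16 or clone 5-3.19 and 0.00 without clone 5-3.14). Qdpr, which recycles the cofactor tetrahydrobiopterin for monoamine synthesis, was the lowest of that list (log2 difference −1.17, adjusted p 0.366). Of 44 tested exocytosis genes (62 listed, 54 on the array) 16 were separated higher and 8 lower, with a median of 0.15 that was 0.09 without clone 1-1.2 and 0.08 without clone 5-3.19. Rab3b, a small GTPase of secretory vesicles, read 764 and 149 in set 1-1 and 2948 and 3012 in set 5-3, so clone 1-1.16 was far below clone 1-1.2 (adjusted p 0.122). Sytl4, the granule docking protein granuphilin, pointed the other way, with 1708 and 978 against 116.5 and 748 (adjusted p 0.272).

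Neuronal cytoskeleton and growth genes supplied 3 of the called lower genes. Of 36 tested (50 listed, 46 on the array) 11 were separated higher and 13 lower, and 4 were lower by at least 2-fold, while the median was 0.11. That median was negative without clone 1-1.16, without clone 5-3.19 and with no filter, with a lowest value of −0.13. Nefm, the medium neurofilament subunit, read 453 and 491 in set 1-1, 70.9 and 89.8 in set 5-3 and 569.6 in the parental line (4.85-fold lower, limma adjusted p 0.0363, and 0.057 and 0.082 without clones 1-1.2 and 1-1.16). Nefl, the light subunit, read 589 and 881 against 114 and 115 (adjusted p 0.0363, and 0.0869 without clone 1-1.16). Gap43, a growth cone protein, read 4684 and 3291 in set 1-1, 1373 and 1420 in set 5-3 and 1895 in the parental line (adjusted p 0.069).

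Gng3, a neuronal G protein gamma subunit, read 5095 and 2453 against 129 and 38.5 (37.3-fold lower, limma adjusted p 0.0176). The other neurofilament genes differed less, with Nefh at 1993 and 2200.5 against 1076.5 and 1683 and Ina at 3470.1 and 3875 against 2637 and 2278. The 4 neurofilament genes were separated lower, by 1.49-fold to 5.43-fold, and 2 of the 4 were called. Other neuronal genes were higher in set 5-3: Elavl4, an RNA-binding protein of neurons, had a log2 difference of 1.31 (adjusted p 0.181), and Barhl1, a neuronal homeobox gene, was called with 257 and 342 against 1314 and 1256 (4.10-fold, adjusted p 0.0363, and 0.064 without clone 1-1.2). Shank2, a synaptic scaffold, was called with 349 and 506.5 against 1641 and 2019 (4.17-fold, adjusted p 0.0434, and 0.0743 without clone 1-1.2).

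Of 20 tested islet transcription factors 8 were separated higher and 1 lower, with no call and a median of 0.35, 0.18 with no filter or without clone 1-1.2 and 0.20 without clone 5-3.19 (44 listed, 25 on the array). Prox1, a homeobox factor of endocrine precursors, read 814 and 926.5 in set 1-1 and 1634.5 and 1741 in set 5-3 (1.92-fold, adjusted p 0.134). Pax6, required for islet hormone genes, read 7043 and 4132 against 8947 and 9168 (1.68-fold, adjusted p 0.264). Pdx1, the beta cell homeobox factor, read 2343 and 1454 against 2845 and 2185 and overlapped. Bhlha15, the secretory cell factor Mist1, was the 1 gene separated lower, with 519 and 383.5 against 196 and 107.5 (adjusted p 0.141).

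Ion channels and pumps were higher in 14 and lower in 4 of 31 tested genes by separation, with a median of 0.28, no call and no 2-fold separation. The median was 0.07 with no filter and 0.17 without clone 1-1.16 or clone 5-3.19 (66 listed, 53 on the array). Kcnk2, a background potassium channel, had the largest difference, with 105 and 282 in set 1-1 and 411 and 509.8 in set 5-3 (adjusted p 0.24). Receptors were even, with 7 separated higher and 8 lower of 28 tested and a median of −0.01 that ran from −0.19 without clone 5-3.19 to 0.21 without clone 5-3.14 (67 listed, 60 on the array). Sstr3, a somatostatin receptor, read 409.6 and 344 against 1033 and 982 (adjusted p 0.0692). The neurotrophin receptors were on the other side, with Ngfr at 1502 and 751 against 88.7 and 157 (limma adjusted p 0.0508) and Ntrk2 at 427 and 329.5 against 109 and 146 (limma adjusted p 0.123). Ngfr read 174.4 in the parental line, so only its 1-1 signals were above the filter limit of 194. Other probe sets of Ntrk2, too dim to test, gave log2 differences of 0.095 and 0.074.

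**Figure D3:**
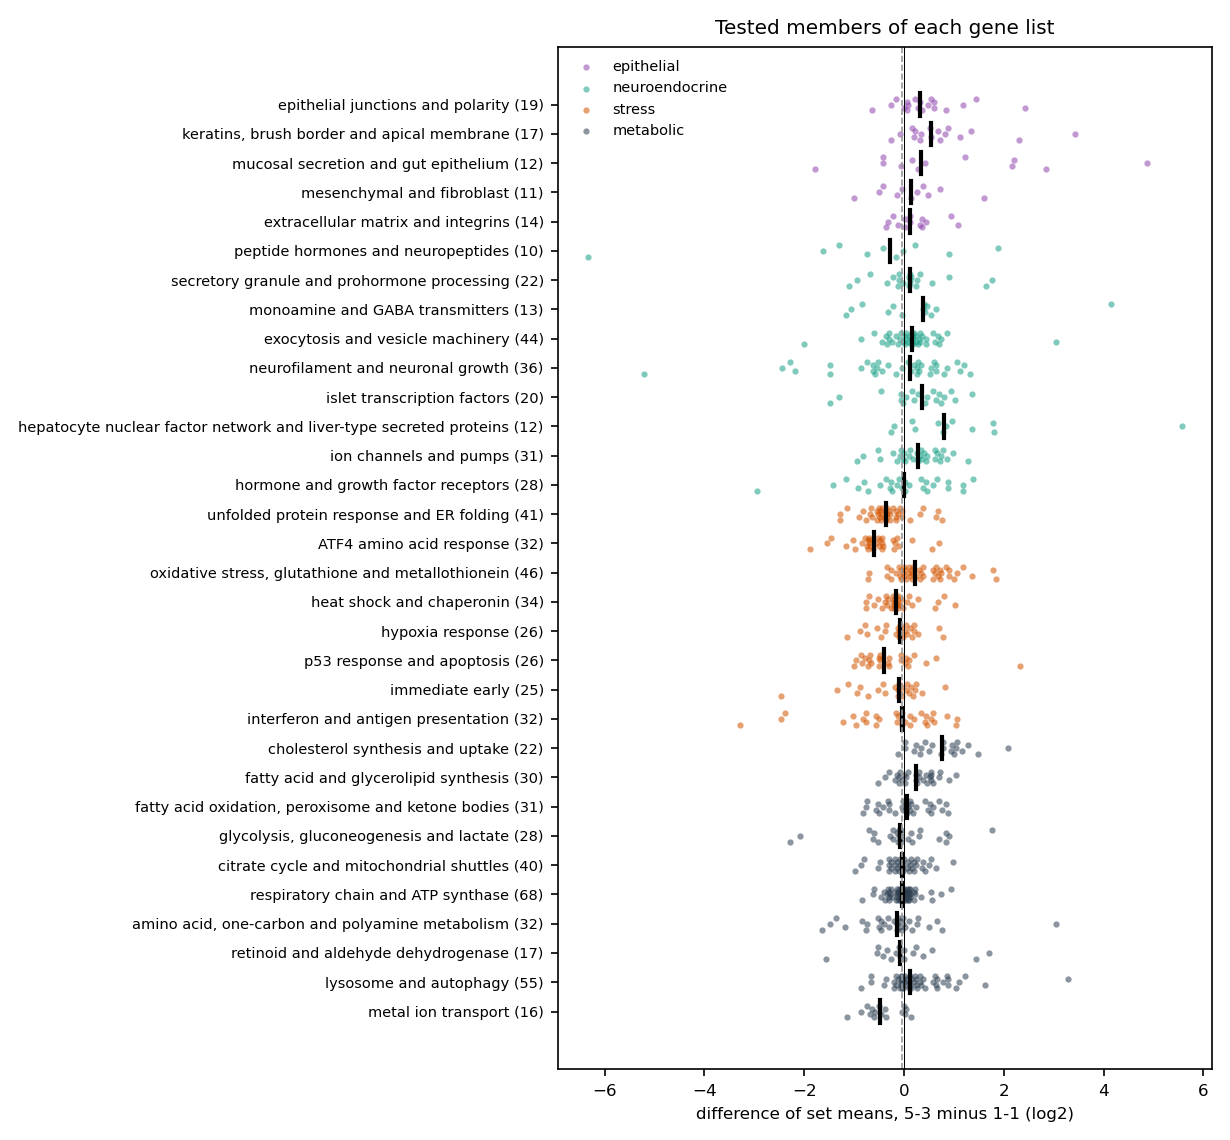
Difference of the set means, set 5-3 minus set 1-1 (log2, horizontal), for every tested member (points) of the gene lists named at the left with their numbers of tested genes. Black bars are list medians, the dashed line is the median over all 6944 genes (−0.05) and colours mark the 4 programmes. The medians of hepatocyte nuclear factor genes (0.81), cholesterol synthesis (0.76) and keratins (0.54) lie farthest to the right, and those of ATF4 targets (−0.60) and metal ion transport (−0.49) farthest to the left. With no filter on dim probe sets the hepatocyte nuclear factor median was −0.05.

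Stress genes were divided by pathway. The ATF4 amino acid response was lower in set 5-3: of 42 listed genes 37 were on the array and 32 were tested, of which 22 (68.8%) were separated lower and 2 higher, with a median log2 difference of −0.60. No member was called, so this is a description of counts. Leaving out each clone gave medians of −0.73 to −0.47. Against the parental line the median was 0.30 in clone 1-1.2, 0.64 in clone 1-1.16, −0.12 in clone 5-3.14 and −0.24 in clone 5-3.19, so the sets lay on opposite sides of the parental level.

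Atf4, the transcription factor itself, read 6878.5 and 8096 in set 1-1, 4709 and 3699 in set 5-3 and 5226 in the parental line (log2 difference −0.83, limma adjusted p 0.159). Atf5, a related factor, was the member separated by at least 2-fold, with 5255 and 5491 against 2362 and 1573 (2.77-fold, adjusted p 0.0705). Cebpb read 1259 and 2200.4 against 729 and 743, and Asns, asparagine synthetase, 5981 and 6393.5 against 4161 and 4179. Trib3 and Ddit3, which mark strong activation of the response, were high in clone 1-1.16 alone: Trib3 read 355.5 and 1314 against 344.5 and 142, and Ddit3 read 675 and 1896 against 528 and 566. The 2 genes separated higher were the amino acid transporter Slc7a5 (log2 0.70) and alanyl-tRNA synthetase Aars1 (log2 0.57), both on chromosome 19.

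The unfolded protein response leaned the same way, with 21 of 41 tested genes (51.2%) separated lower, 3 higher, no call and a median of −0.37 (44 listed, 41 on the array). The median was −0.24 without clone 1-1.2 and −0.58 without clone 1-1.16. Dnajc3, an ER co-chaperone that restrains the kinase PERK, had the lowest value, at 2753 and 2322 in set 1-1 and 798 and 1304 in set 5-3 (2.45-fold, adjusted p 0.128). Hspa5, the ER chaperone BiP, read 20628 and 12753 against 10469 and 10178 (adjusted p 0.277), with clone 1-1.2 above the rest. Xbp1, the transcription factor spliced by IRE1, read 8535 and 10285 against 4405 and 6402 (adjusted p 0.196). Herpud1, an ER-associated degradation protein on chromosome 19, was the highest of the 3 genes separated the other way (log2 0.75, adjusted p 0.267).

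Genes of oxidative stress and glutathione went the other way, with 20 of 46 tested genes (43.5%) separated higher and 4 lower and a median of 0.22 (67 listed, 62 on the array). The median was 0.35 without clone 1-1.16 and 0.34 without clone 5-3.14. Taldo1, transaldolase of the pentose phosphate pathway, was called, with 3954 and 3818 in set 1-1, 9599.6 and 10593 in set 5-3 and 5197 in the parental line (2.59-fold, limma adjusted p 0.0434, and 0.0699 and 0.104 without clones 1-1.2 and 1-1.16). Gstm1, a glutathione transferase, read 433 and 432 against 1214 and 1953 (3.44-fold, adjusted p 0.0678). Nqo1, a quinone reductase, read 322 and 406 against 1017 and 713 (adjusted p 0.141). The list was not uniform: Mgst1, a microsomal glutathione transferase, read 7990.3 and 7730 against 4581 and 4978.5 (adjusted p 0.159), and Txnip, a thioredoxin inhibitor induced by glucose, followed no set, with 2941.5 and 10608 against 1988 and 15373.

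Targets of p53 and apoptosis genes were separated lower in 14 of 26 tested genes (53.8%) and higher in 3, with a median of −0.40 that was −0.24 without clone 1-1.16 (47 listed, 34 on the array). Sesn1, a sestrin on chromosome 20, was the exception in size, with 288 and 141 in set 1-1, 1025.5 and 1183 in set 5-3 and 1181 in the parental line (5.00-fold, adjusted p 0.0533). Gadd45g, a growth arrest gene, was the lowest member, with 2645 and 2839 against 1794 and 1026 (adjusted p 0.203). Heat shock genes had 12 of 34 tested separated lower (35.3%) and 5 higher (14.7%), beside 26.1% and 21.7% of all genes. Hypoxia genes had 8 of 26 lower (30.8%) and 1 higher (3.85%), and immediate early genes 7 of 25 lower (28.0%) and 1 higher (4.0%). For hypoxia and immediate early genes the lower shares were thus near that of all genes. The medians of these lists were −0.17, −0.08 and −0.10, with no call. Without clone 1-1.16 these medians were −0.08, −0.20 and 0.00, and without clone 5-3.19 they were −0.23, −0.18 and −0.32. The hypoxia median was −0.17 without clone 5-3.14, and the immediate early median was −0.37 without clone 1-1.2. Their lowest members were the mitochondrial chaperone gene Hspa9 (log2 −0.75), the collagen prolyl hydroxylase gene P4ha2 (−1.14) and the nuclear receptor gene Nr4a3 (−2.47), at adjusted p of 0.223, 0.105 and 0.149. Their highest were Dnajb1 (1.01), Epas1 (0.78, with overlap) and Klf6 (0.82). Nr4a3 read above the filter limit of 194 in the 1-1 clones only (1872.6 and 453.2), so it was tested through the set where it is high.

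Immune genes were separated at shares near those of all genes. Of 32 tested (66 listed, 56 on the array) 6 were separated higher (18.8%) and 10 lower (31.2%), beside 21.7% and 26.1% of all genes. Their median of −0.04 ran from −0.18 without clone 1-1.2 to 0.03 without clone 1-1.16. Ifitm1, an interferon-induced membrane protein, was called lower, with 464 and 694 in set 1-1 and 88.2 and 93.9 in set 5-3 (5.23-fold, limma adjusted p 0.0434, and 0.105 without clone 1-1.16). Icam1, a leukocyte adhesion receptor, read 662 and 1021 against 171 and 17.1 (limma adjusted p 0.123), and Sting1, a sensor adaptor of cytosolic DNA, read 836 and 468 against 209.5 and 37.4 (limma adjusted p 0.164). Icam1 read 89 in the parental line, so only its 1-1 signals were above the filter limit of 194. The immunoproteasome gene Psmb10 was separated higher, with 839.8 and 789.7 against 2142.5 and 1400.4 (adjusted p 0.159). Of the 32 genes, 8 lie on chromosome 20, which holds the rat major histocompatibility complex, 1 on chromosome 19 and 1 on chromosome 12, and without these the median was −0.36.

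Metabolic lists gave no common direction. Cholesterol synthesis and uptake had a median of 0.76, with 21 of 22 tested genes higher in the mean of set 5-3 and 9 separated higher and 0 lower (28 listed, 22 on the array). This value rested on clone 1-1.16: it was 0.17 without that clone, 0.47 without clone 5-3.14 and 1.39 without clone 1-1.2. Against the parental line the median was −0.87 in clone 1-1.2, −1.97 in clone 1-1.16, −0.55 in clone 5-3.14 and −0.78 in clone 5-3.19, so all clones lay below the parental level and clone 1-1.16 lay lowest. Sqle, squalene epoxidase, read 2223 and 935 in set 1-1, 4469 and 3750 in set 5-3 and 5915 in the parental line (adjusted p 0.168). Srebf2, which encodes the sterol-regulated transcription factor SREBP-2, read 2027 and 1045 against 3225 and 2852 (adjusted p 0.212). Insig1, a sterol sensor partner, overlapped, with 5367.5 and 981 against 6173 and 3803.

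Glucose and lactate metabolism supplied a called gene. Of 28 tested genes of glycolysis, gluconeogenesis and lactate (47 listed, 41 on the array) 5 were separated higher and 10 lower, with a median of −0.09 that was −0.00 without clone 1-1.16, −0.05 without clone 1-1.2 and −0.14 without clone 5-3.19. Ldhb, the heart-type lactate dehydrogenase subunit, was called lower, with 2636 and 1872 in set 1-1, 455 and 573 in set 5-3 and 1544 in parental cells (4.21-fold, limma adjusted p 0.0419, and 0.0699 without clone 1-1.2). Slc16a1, the monocarboxylate transporter MCT1, a gene normally silent in beta cells, read 399.7 and 734.5 in set 1-1, 53.1 and 155 in set 5-3 and 133 in the parental line (4.91-fold, adjusted p 0.123). Both 1-1 clones were above every other array in these 2 lactate genes. Slc16a1 read above the filter limit of 194 in the 1-1 clones only, so it was tested through the set where it is high. Pygl, liver glycogen phosphorylase, was the highest of the list, with 431 and 264 against 750.4 and 1920.3 (adjusted p 0.165). Slc16a10, a gene of the same transporter family whose product carries aromatic amino acids, was called higher, with 106 and 86.1 against 519 and 466 (4.38-fold, adjusted p 0.0434, and 0.0841 without clone 1-1.16).

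Mitochondrial and lipid lists had no call and no 2-fold separation. The respiratory chain had 7 of 68 tested genes separated in each direction (10.3%) and a median of −0.04, which ran from −0.17 without clone 1-1.16 to 0.09 without clone 1-1.2. The citrate cycle had 10 higher and 7 lower of 40 (median −0.03, from −0.10 without clone 1-1.16 to 0.06 without clone 1-1.2), and fatty acid oxidation 11 higher and 7 lower of 31 (0.07, from −0.07 without clone 5-3.19 to 0.10 without clone 1-1.16). Fatty acid and glycerolipid synthesis had 9 higher (30.0%) and 2 lower (6.67%) of 30, with 21 of 30 means higher and a median of 0.24, which ran from 0.15 without clone 1-1.16 to 0.45 without clone 5-3.19. Their largest members were Idh1 (log2 0.98) and Sucla2 (−0.99) of the citrate cycle, Hadh (0.88) and Etfb (−0.83) of fatty acid oxidation, and Agpat1 (1.04) and Acsl3 (−0.52) of lipid synthesis, none of them called. Etnk1, ethanolamine kinase of phospholipid synthesis, was called lower outside the lists, with 10523 and 11509 against 3889 and 4638 (2.58-fold, limma adjusted p 0.0484, and 0.0751 and 0.133 without clones 1-1.2 and 1-1.16).

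Amino acid and polyamine genes had 3 separated higher and 11 lower of 32 tested, with a median of −0.14 that was −0.26 without clone 1-1.2 and −0.30 without clone 5-3.14. Sms, spermine synthase, was the largest of them, with 76.3 and 211.5 in set 1-1, 1430.2 and 1037 in set 5-3 and 1058 in the parental line (log2 difference 3.04, adjusted p 0.051), so the 1-1 clones were the low ones. Slc1a1, a glutamate transporter, read 541.5 and 564 against 155 and 171 (3.11-fold, adjusted p 0.0611), and its other probe set also gave a negative log2 difference, −1.33. Bckdhb, a subunit of branched-chain ketoacid dehydrogenase, read 1601 and 1161 against 534.5 and 498 (adjusted p 0.086). Of 17 tested retinoid and aldehyde dehydrogenase genes, 5 were separated higher and 3 lower (median −0.09), a median that ran from −0.17 without clone 5-3.19 to 0.13 without clone 5-3.14. Rxrb, a retinoid X receptor, was the 1 gene separated higher by at least 2-fold, with 150.1 and 85.8 against 352.5 and 345.5 (adjusted p 0.131).

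Lysosome and autophagy genes were separated higher in 23 of 55 tested genes (41.8%) and lower in 5, with a median of 0.12 that was 0.05 with no filter and 0.20 without clone 1-1.2 (74 listed, 63 on the array). Tfe3, a transcription factor of lysosomal genes, was the called member, with 36.2 and 36.3 in set 1-1, 500.4 and 599 in set 5-3 and 468 in the parental line (9.81-fold, limma adjusted p 0.0116). The 1-1 clones were the low ones. Man2b1, lysosomal alpha-mannosidase, read 943 and 655 against 2479 and 2452.5 (adjusted p 0.0645). Metal ion transport genes were on the other side, with 9 of 16 tested genes (56.2%) separated lower and 0 higher and a median of −0.49, −0.31 with no filter (26 listed, 24 on the array). Slc30a7, a zinc transporter of the Golgi, was the lowest, with 621 and 914 against 296 and 367 (adjusted p 0.156), and Slc31a1, a copper importer, read 2106 and 1841 against 1219 and 1135 (adjusted p 0.2).

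Ribosomal protein genes had 3 separated higher and 5 lower of 40 tested (median −0.04), proteasome subunits 2 and 12 of 30 (−0.10) and cell cycle genes 4 and 12 of 49 (−0.16), with no call and no 2-fold separation. Without clone 5-3.19 these medians were 0.06, −0.02 and −0.05, and without clone 1-1.16 they were −0.12, −0.18 and −0.22. Without clone 5-3.14 they were −0.12, −0.19 and −0.16. In the proteasome list, Psmd7 on chromosome 19 was highest (log2 0.94) and Psmd9 on chromosome 12 lowest (−1.08).

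The remaining called genes belonged to no list. Higher in set 5-3 were Cmip, an adaptor protein (278 and 394 in set 1-1 and 1421 and 1281 in set 5-3, limma adjusted p 0.0434, and 0.0753 without clone 1-1.2), Myo1d, an unconventional myosin (540.2 and 501 against 1641 and 1663, adjusted p 0.0434, and 0.0803 and 0.131 without clones 1-1.2 and 1-1.16), and Nkain1 (208 and 249 against 1255 and 1319, adjusted p 0.0176). The other probe set of Myo1d gave a smaller log2 difference of 0.85. Marchf7 was lower in set 5-3, with 1030 and 1865 against 26.4 and 39.1 (log2 −4.70, limma adjusted p 0.00839). C2cd4b read 1164 and 912 against 102 and 212 (−2.63, adjusted p 0.045). Ccdc61 read 644 and 792 against 79 and 123 (−2.61, adjusted p 0.0309), and Med13l 1368 and 2125 against 259 and 268 (−2.60, adjusted p 0.0269). Also lower were Nfil3, a circadian leucine zipper repressor (1444 and 1962 against 338 and 367, 4.56-fold, adjusted p 0.0363), and Anxa6, a calcium-dependent membrane-binding annexin (554 and 647 against 118 and 106, 4.64-fold, adjusted p 0.0363). Both lost the call without clone 1-1.16 (0.0635 and 0.09), and Anxa6 also without clone 1-1.2 (0.0527). Slc24a3, a sodium, calcium and potassium exchanger, read 622 and 682 against 154 and 167.5 (3.69-fold, limma adjusted p 0.0484). It was not called without clone 1-1.2 or without clone 1-1.16, and its other probe set gave −0.56. The parental line read 192.3, so only the 1-1 signals of Slc24a3 were above the filter limit of 194. It was thus tested through the set where it is high.

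The genes next in size, outside the lists, did not pass the test. Enpp2, which makes the lipid mediator lysophosphatidic acid, read 405 and 314.5 in set 1-1 and 3566 and 1415 in set 5-3 (adjusted p 0.0692). Selenop, a secreted selenium carrier, read 2053 and 2691 against 7307 and 14684 (adjusted p 0.0678). Slc15a2, a peptide transporter, read 148.5 and 227 against 1108 and 754.5 (adjusted p 0.0519), and Bcam, a laminin receptor, 420.5 and 439 against 1357 and 3339 (adjusted p 0.0841). The others higher were Ppp1r9a, Nrsn1, Mylip, Zfhx3, Robo2 and Fig4, with log2 differences of 1.58 to 2.80. On the lower side, Tgfb2, a growth factor of the TGF-beta family, read 530.5 and 1189.5 against 107 and 35.1 (adjusted p 0.0678), and Tfpi, an inhibitor of tissue factor, 3246 and 2273 against 407 and 733 (adjusted p 0.0533). The others lower were Cpeb1, LOC102547700, P3h1, Hdgfl3, Scrn1, Mmachc, Cd83 and Grin1, with log2 differences of −3.05 to −1.74.

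The difference between the sets also varied from chromosome to chromosome. When 6920 of the 6944 tested genes were placed on chromosomes with the GRCr8 gene table, 3 chromosomes had more than 50% of their genes separated in 1 direction. That limit was set once the data had been seen. On chromosome 19, 175 of 219 genes (79.9%) were separated higher in set 5-3 and 4 (1.83%) lower, with a median log2 difference of 0.73, or 1.66-fold. On chromosome 20, 126 of 224 genes (56.2%) were separated higher and 16 (7.14%) lower, with a median of 0.38, or 1.30-fold. On chromosome 12, 151 of 258 genes (58.5%) were separated lower and 19 (7.36%) higher, with a median of −0.31. On all other chromosomes together the shares were 18.9% higher and 26.3% lower over 6219 genes, with single-chromosome medians from −0.18 on chromosome 14 to 0.01 on chromosome 17. The scaling alternatives moved the median over all genes only to between −0.07 and −0.01.

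**Figure D4:**
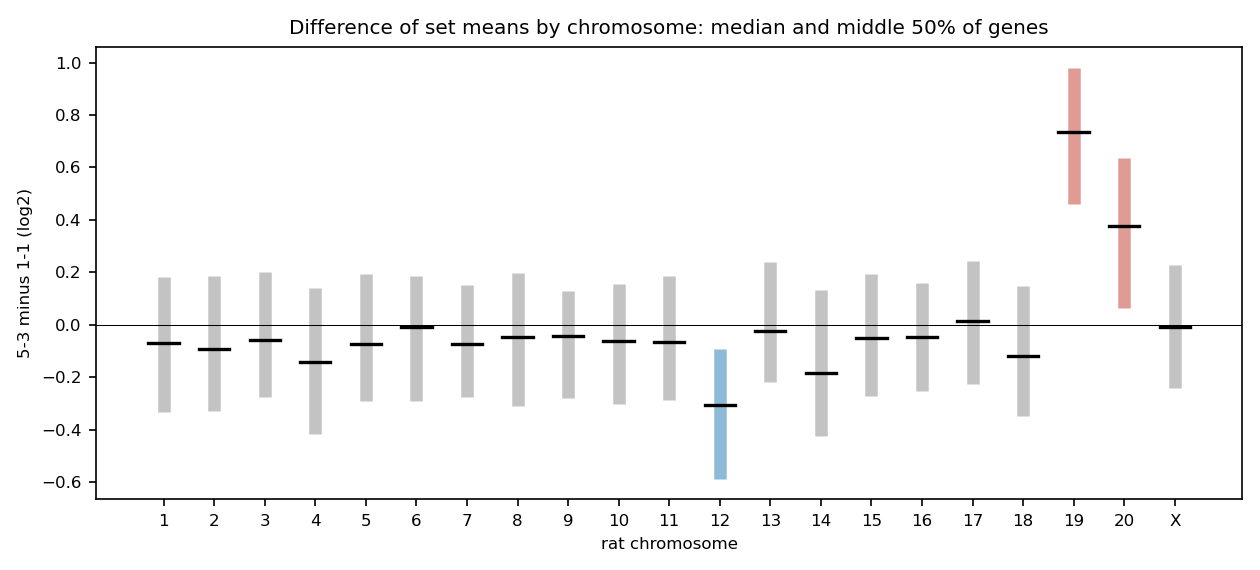
Difference of the set means, set 5-3 minus set 1-1 (log2, vertical), for the tested genes of each rat chromosome. Black lines are medians and shaded bars the middle 50% of genes. Chromosomes 19 (median 0.73) and 20 (0.38), in red, lie above the rest, and chromosome 12 (−0.31), in blue, lies below.

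The offset of chromosome 19 was a property of the 5-3 clones against the parental line. The median difference from the parental array over its 219 genes was 0.02 in clone 1-1.2, 0.05 in clone 1-1.16, 0.80 in clone 5-3.14 and 0.71 in clone 5-3.19. It ran over the whole chromosome, since the medians of 10 consecutive blocks of about 20 genes ranged only from 0.59 to 0.85. The 4 genes separated lower there were Cngb1, Zfp423, Cotl1 and Cox6c-ps1. Chromosome 19 supplied 21 of the 81 genes separated higher by at least 2-fold (25.9%), while it holds 3.16% of the placed genes, and 0 of those separated lower. These 21 included Cdh1, Cmip, Pllp, Zfhx3, Smpd3, Man2b1, Gnao1, Mbtps1 and Mvd.

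Chromosome 20 was less even. Against the parental line its median was −0.06 in both 1-1 clones and 0.35 and 0.27 in the 5-3 clones. Its blocks from Dnajc12 to Marcks had medians of −0.13 and −0.17, while the other blocks had 0.27 to 0.58. It supplied 9 of the 81 genes (11.1%), namely Tff3, Slc16a10, Cd99, Sesn1, Fig4, Specc1l, Rxrb, Slc19a1 and Ehmt2. On chromosome 12 the sets lay on opposite sides of the parental level, at 0.13 in each 1-1 clone and −0.12 and −0.23 in the 5-3 clones, with block medians of −0.59 to −0.02.

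A shorter stretch lay at the end of chromosome 4, where the last 2 blocks had medians of −0.72 (Gabarapl1 to Aebp2) and −0.88 (Iapp to Resf1) beside 0.01 in the block before. Of the 22 genes in the last block 19 were separated lower, among them the called genes Ldhb and Etnk1, and its median against the parental line was 0.24 and 0.28 for set 1-1 and −0.88 and −0.67 for set 5-3. Iapp, whose clones overlapped, lies in this block. On chromosome 14 the block from Nf2 to LOC102547700, which holds Xbp1, had 16 of 20 genes separated lower and a median of −0.65, with 5-3.14 lower against the parental line (−0.67) than 5-3.19 (−0.11). Among windows of 15 neighbouring genes, of which there were 6626, the 3 highest that did not overlap were all on chromosome 19 (Samd1 to Gab1 at 0.93, Vps4a to Ist1 at 0.90 and Nup93 to Tent4b at 0.89). The lowest were Plekha5 to Med21 on chromosome 4 (−0.89), Ewsr1 to LOC102547700 on chromosome 14 (−0.76) and Gabarapl1 to Strap on chromosome 4 (−0.72). Only RNA was measured, and what set these stretches apart was not tested.

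**Figure D5:**
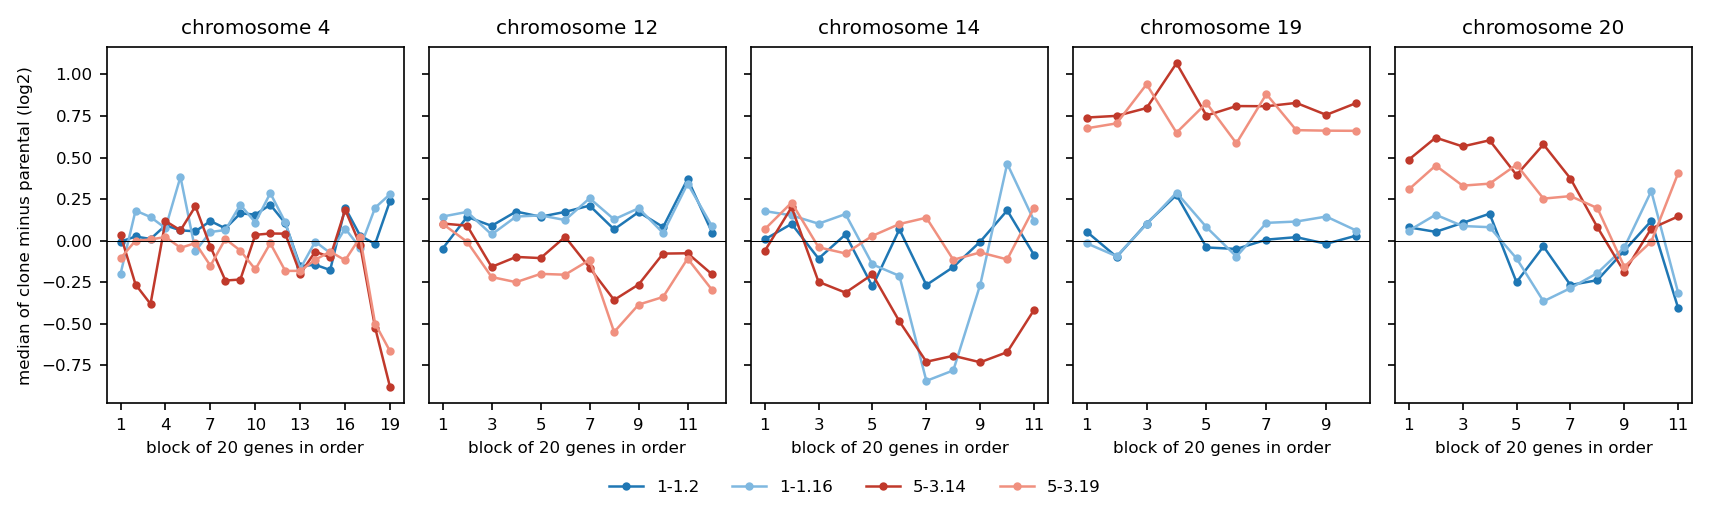
Median difference of each clone from the parental array (log2, vertical) in consecutive blocks of about 20 tested genes along chromosomes 4, 12, 14, 19 and 20, in gene order. Blue lines are the 1-1 clones and red lines the 5-3 clones. On chromosome 19 the red lines lie between 0.59 and 1.07 in every block and the blue lines between −0.10 and 0.29, and on chromosome 4 both red lines are lowest in the last 2 blocks.

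Genes of chromosomes 12, 19 and 20 were members of many of the lists. In 10 of the 35 lists the member with the highest fitted difference lies on chromosome 19 (Cdh1, Itgb1, Herpud1, Slc7a5, Dnajb1, Psmb10, Mvd, Ndufb7, Psmd7 and Mcm5), and in 3 on chromosome 20 (Tff3, Sesn1 and Agpat1). Leaving out the genes of chromosomes 12, 19 and 20 moved the median of epithelial junctions from 0.31 to 0.28, of keratins from 0.54 to 0.52, of the ATF4 list from −0.60 to −0.63 and of islet transcription factors from 0.35 to 0.46. It moved the median of the monoamine and GABA list from 0.38 to 0.18, of the lysosome list from 0.12 to 0.08, of the mesenchymal list from 0.13 to 0.20 and of the immune list from −0.04 to −0.36. Of the 20 genes called higher, 2 lie on chromosome 19 (Cdh1 and Cmip) and 3 on chromosome 20 (Tff3, Slc16a10 and Cd99), and Med13l, called lower, lies on chromosome 12. Of the other called genes, C2cd4b was not placed and the rest lie on other chromosomes.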

How the data were processed

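RNA of parental INS-1 cells and 4 clones was measured on single-colour rat expression arrays, 1 per line. The authors deposited 1 linear intensity per probe set and array; the software behind it is not given in the sources used here. Probe sets were named from the platform table: 12783 had 1 symbol, 312 several and 2771 none, and 12748 matched the GRCr8 gene table, which gave chromosomes and gene order. The offset of 21.8 is the 10th percentile of positive signals. A probe set entered the test if its average log2 signal, parental array included, reached the 40th percentile (a signal of 194), and 9520 did. The comparison used limma 3.58.1 under R 4.3.3 (lmFit, then eBayes with an intensity trend), tested on simulated data, in a fit of 3 groups in which the parental array adds no residual degree of freedom. Each gene was counted by its brightest tested probe set.

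Genes were named when called, when among the up to 4 members each way of a list most clearly separated by 2-fold (otherwise the 1 with the largest difference), when among the 10 next outside the lists, or when in a fixed set; others named as examples were chosen after their values were seen. Of the fixed set, Vim and Ldha were too dim to test, and some genes are not reported here. The members and lists were chosen with earlier results of these data known. Alternatives covered scaling, offset, filter, variance model, choice of probe set and leaving out each clone; leaving out 3 chromosomes was added after the data were seen.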

Additional observations from a re-analysis of the deposited data

How the results depend on the processing

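The count of called probe sets (21 higher, 19 lower) depended on the settings. It was 38 and 32 with median centring, 32 and 32 with an offset 4 times larger, 7 and 3 with no filter, and 6 and 6 with a filter at the 60th percentile. Without an intensity trend 13 were called higher. With no filter 3935 probe sets were separated lower, and those separated by at least 2-fold numbered 151 higher and 178 lower. With the filter at the 60th percentile they numbered 58 and 30. Leaving out the genes of chromosomes 12, 19 and 20, an alternative added after the data were seen, left 63 separated higher by at least 2-fold. Leaving out each clone in turn gave 31 to 127 called higher and 18 to 137 called lower. In those fits the remaining clone of a set was taken to vary as the other clones do, and separation is easier to reach with 3 clones: 3035 to 3483 probe sets were separated higher and 3310 to 3925 lower, and 194 to 254 and 126 to 274 by at least 2-fold. Quantile and cyclic loess normalization, a smaller offset, a robust variance and the 4 clones alone kept the counts within 1.5 times. All 40 called probe sets were also called with median centring, with quantile normalization and with the larger offset. Of 480 recomputed list medians, 423 stayed within the spread between clones. No paired analysis was possible because the clone numbers differ between the sets. With no detection calls, a dim probe set could not be separated from background.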

Other observations

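Some stretches of chromosomes differed between clones of 1 set rather than between the sets. At the start of chromosome 1, 3 blocks of 20 genes from Lrp11 to Rmnd1 had medians of −0.71, −1.03 and −0.95 against the parental array in clone 5-3.14, while clone 5-3.19 had 0.26, −0.16 and 0.03 and both 1-1 clones lay between −0.10 and 0.23. On chromosome 14, the blocks from Tapt1 to Trmt44 and from Lrpap1 to Prr14l had medians of −0.84 and −0.78 in clone 1-1.16 and of −0.73 and −0.69 in clone 5-3.14. The same blocks had −0.27 and −0.16 in clone 1-1.2 and 0.14 and −0.11 in clone 5-3.19, so 1 clone of each set was low there. Over all 237 tested genes of chromosome 14 the median of clone 5-3.19 minus clone 5-3.14 was 0.54. These stretches were noticed in the data and carry no test.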
